A study of Drosophila melanogaster with 9 samples.

Results

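The proteasome subunit genes were taken as all genes of the expression table whose symbol begins with Rpn or Rpt and a digit, or with Prosalpha or Prosbeta. This rule found 47 of 14168 genes. Of these, 32 were the canonical subunits: 14 of the core particle (7 alpha and 7 beta), 10 of the base (the 6 Rpt ATPases and the 4 non-ATPase subunits Rpn1, Rpn2, Rpn10 and Rpn13) and 8 of the lid. The other 15 were copies marked T or R in their symbols, most of them known as testis-type genes. All 47 were annotated to the proteasome map of 53 genes in the authors' table. Sem1, also on this map, is not reached by the rule and is not counted in the 8 lid genes.

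The RNA was polyadenylated RNA from wing imaginal discs of Drosophila larvae in the third instar, epithelia from which the adult wing develops. There were 3 genotypes with 3 biological replicates each, and each extraction pooled 100 discs. NAT10 knockdown discs (en-GAL4 > UAS-NAT10-RNAi) expressed an RNAi construct to NAT10, an enzyme that acetylates cytidines in RNA. Double knockdown discs (en-GAL4 > UAS-NAT10-RNAi,Xrp1-RNAi) expressed a second construct, to Xrp1, which encodes a stress-induced bZIP protein known for its role when ribosomes are impaired, and control discs (en-GAL4>+; named en_w1118 in the count table) carried the driver alone. All genotypes thus share the engrailed driver, which is active in the posterior compartment, so every library mixes targeted posterior cells with untargeted anterior cells. The question of the study was which responses to NAT10 loss need Xrp1. Fewer cells of a type and less RNA per cell cannot be told apart in such bulk libraries.

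The proteasome is the protease that degrades ubiquitin-tagged proteins. Its core particle is a barrel in which rings of alpha subunits gate the entrance and rings of beta subunits hold the cutting sites. The regulatory particle sits on the barrel: the base unfolds substrates with a ring of ATPases and receives ubiquitin chains, and the lid removes them. In animals, subunit genes can be induced together by a cap'n'collar transcription factor of the Nrf1 type when proteasome activity falls.

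Libraries held 14183856 to 19949448 estimated counts, and replicates correlated at 0.9937 to 0.9954 (Pearson, across genes). The fly NAT10 gene, listed as l(1)G0020, averaged 62.2 ± 0.918 normalised CPM (counts scaled to library size with TMM factors, mean ± SD, n = 3) in NAT10 knockdown, 74.7 ± 2.68 in double knockdown and 101.4 ± 1.36 in control discs. Against control, Xrp1 was higher in NAT10 knockdown discs (log2 fold change 0.85 ± 0.028, SE, edgeR adjusted p = 1.29e-19) and lower in double knockdown discs (-0.35 ± 0.028, adjusted p = 1.81e-10). All 11 wing disc epithelium markers passed the filter on low counts. Their summed level was 4622 to 4699 CPM in NAT10 knockdown, 5687 to 5733 in double knockdown and 5903 to 6013 in control discs.

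The 32 canonical genes were spread over all major chromosome arms, with 4 on 2L, 10 on 2R, 5 on 3L, 9 on 3R and 4 on X in the BDGP6.54 annotation. The nearest neighbours among them were Rpn9 and Rpt5, 19.4 kb apart on 3R, and Rpn12 and Prosbeta6, 25.4 kb apart on 3L. No exon bases were shared with another gene for 19 of them. The other 13 shared at most 15.7%. No strand setting for the counting is given in the sources used, so reads of such overlaps cannot be assigned to a gene with certainty.

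In control discs the core subunits stood at similar levels per length, and above most regulatory subunits. Prosalpha1 aside, the 13 other core genes had 146.6 to 231.8 FPKM (the authors' values scaled by gene length and depth, mean of 3 control libraries), with a median of 182.3. The 18 regulatory genes had 107.1 to 189.3 FPKM, with a median of 131.7. Prosbeta5, the subunit with the chymotrypsin-like site, was highest at 231.8 ± 5.84 FPKM, and the ubiquitin receptor Rpn13 was lowest of these 31 at 107.1 ± 0.888. The genes next above it, Rpt3 (113.1 ± 7.14) and Rpn3 (114.5 ± 3.36), did not differ from each other beyond their spread. Counts per kilobase of annotated exon gave medians of 180.7 for the core and 128.4 for the regulatory particle, close to the FPKM values.

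The first comparison set NAT10 knockdown discs against control discs, which carried the driver and no RNAi construct. Proteasome transcripts were lower throughout the complex, by a median of 0.31 on the log2 scale, which is a fold of 0.807. Of the 32 canonical genes, 31 fell and 0 rose at an adjusted p under 0.05 in edgeR (quasi-likelihood test, Benjamini-Hochberg adjustment over 8487 genes). Against this, 29.6% of all genes tested fell and 32.5% rose. At an unadjusted p under 0.05 the counts were 31 lower and 0 higher. DESeq2 also called 31 lower and 0 higher, against 24.0% of its genes that were lower. For 30 of the 32 genes all NAT10 knockdown libraries were below all control libraries, against 31.0% of all genes.

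Highly expressed genes fell more often than others in this comparison. Among the 2054 genes with at least the mean level of Rpn12 (108.3 CPM, the lowest canonical subunit other than Prosalpha1), 53.7% fell, and their median log2 fold change was -0.11 against 0.03 for all genes. Among the 5167 genes with at least the mean level of Prosalpha1 (25.23 CPM), 39.2% fell.

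The summed level of the 32 genes was 5268, 5261 and 5231 CPM in the NAT10 knockdown libraries, 5953, 5975 and 6000 in the double knockdown libraries and 6511, 6658 and 6661 in the control libraries. The genotypes did not overlap, and each double knockdown library lay between the other genotypes. In NAT10 knockdown discs the sum was 0.795 of the control mean. As a share of all counts, the canonical genes took 0.525% in NAT10 knockdown, 0.603% in double knockdown and 0.656% in control libraries.

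**Figure D1:**
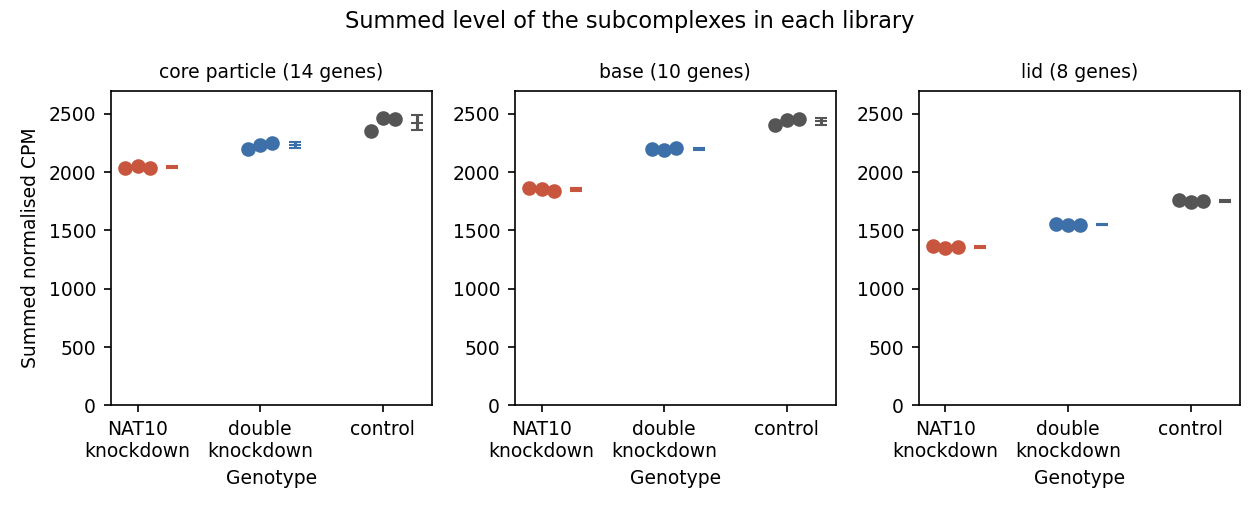
Summed normalised CPM of the core particle (14 genes), base (10 genes) and lid (8 genes) in each library, by genotype (x axis). Points are libraries and the bar beside them is the mean ± SD (n = 3). The base sums lie at 1840 to 1865 in NAT10 knockdown, 2190 to 2205 in double knockdown and 2403 to 2454 in control libraries.

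Median changes were unequal among the parts of the complex. The core had a median log2 change of -0.23 and the regulatory particle one of -0.36. The 4 non-ATPase subunits of the base had the lowest median, -0.46, with a range of only -0.53 to -0.45. The lid (median -0.34) and the ATPases (-0.32) came next, and the beta (-0.23) and alpha (-0.22) subunits changed least. Differences between single genes, with an SD of 0.117, were larger than the typical standard error of a gene, 0.032. These medians are descriptions and the difference between the subcomplexes was not tested.

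The lid holds the deubiquitinase Rpn11, its partner Rpn8 and a horseshoe of scaffold subunits. All 8 lid genes fell. The largest decrease of any member was that of the scaffold subunit Rpn5 (FBgn0028690, 3R, 5789493 to 5791569, plus strand). It had 255.4, 233.0 and 233.4 CPM in NAT10 knockdown, against 356.3, 353.8 and 347.5 CPM in control libraries. Every NAT10 knockdown library was far below every control library, a log2 fold change of -0.55 ± 0.031 (SE, adjusted p = 1.8e-14).

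Rpn11 changed least in the lid. It had 148.0, 152.0 and 145.1 CPM in NAT10 knockdown, against 176.7, 170.6 and 176.1 CPM in control libraries. The groups did not overlap, and the decrease was 0.24 ± 0.032 on the log2 scale (adjusted p = 4.55e-07). Its partner Rpn8 fell by 0.41 ± 0.030 (adjusted p = 5.37e-12). The scaffold subunits Rpn7, Rpn12, Rpn6, Rpn3 and Rpn9 fell by 0.38, 0.36, 0.32, 0.31 and 0.28.

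All 10 base genes fell. Rpn2 and Rpn1, the large scaffolds on which the base and the ubiquitin shuttles dock, and the ubiquitin receptors Rpn10 and Rpn13 changed to similar degrees. Rpn2 (FBgn0028692, 3R, 29153524 to 29157255, plus strand) had 350.2, 334.2 and 330.8 CPM in NAT10 knockdown, against 476.5, 496.5 and 489.3 CPM in control libraries. No NAT10 knockdown library came near the control range, and Rpn2 fell by 0.53 ± 0.028 on the log2 scale (adjusted p = 4.49e-15). Rpn13, with the smallest change of the 4, had 112.1, 117.7 and 110.3 CPM in NAT10 knockdown, against 156.3, 153.7 and 152.9 CPM in control libraries. That decrease, also without overlap, was 0.45 ± 0.037 (adjusted p = 7.66e-11). Rpn1 averaged 276.2 ± 6.66 CPM in NAT10 knockdown and 385.0 ± 5.74 in control discs (SD, n = 3 each), and Rpn10 averaged 129.1 ± 2.35 CPM in NAT10 knockdown and 176.0 ± 3.02 in control discs.

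The ATPases, which form the unfolding ring, were less even. Rpt5 (FBgn0028684, 3R, 23752876 to 23754623, plus strand) had 150.8, 141.4 and 149.9 CPM in NAT10 knockdown, against 204.6, 201.5 and 204.8 CPM in control libraries. Rpt1, at the other end, had 204.6, 208.0 and 208.5 CPM in NAT10 knockdown, against 243.0, 232.1 and 236.7 CPM in control libraries. Neither gene's groups overlapped, and the decreases were 0.47 ± 0.032 for Rpt5 (adjusted p = 1.14e-12) and 0.20 ± 0.028 for Rpt1 (adjusted p = 1.05e-06). Rpt4, Rpt6, Rpt2 and Rpt3 fell by 0.35, 0.32, 0.31 and 0.21.

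All 7 beta subunits of the core fell, and the change was uneven among the catalytic ones. Prosbeta5 (FBgn0029134, 2R, 10819978 to 10821178, plus strand) had 194.5, 190.6 and 198.4 CPM in NAT10 knockdown, against 259.6, 270.8 and 266.6 CPM in control libraries. This wide gap was a decrease of 0.45 ± 0.029 on the log2 scale (adjusted p = 3.9e-13). Prosbeta2, with the trypsin-like site, fell by 0.38 ± 0.030 (adjusted p = 2.03e-11), and Prosbeta1, with the caspase-like site, by 0.23 ± 0.035 (adjusted p = 3.01e-06). The structural subunits Prosbeta3, Prosbeta7, Prosbeta6 and Prosbeta4 fell by 0.23, 0.23, 0.21 and 0.20. Prosbeta4 had 102.6, 97.3 and 103.7 CPM in NAT10 knockdown, against 117.4, 116.8 and 114.1 CPM in control libraries, a smaller gap but again without overlap.

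Of the 7 alpha subunits, 6 fell. Prosalpha2 (FBgn0086134, 3R, 12431321 to 12432556, plus strand) had the smallest change of all members, with 179.6, 176.0 and 172.2 CPM in NAT10 knockdown, against 178.6, 197.6 and 189.6 CPM in control libraries. Its groups overlapped, since control replicate 1 was as low as the NAT10 knockdown libraries. The decrease of 0.10 ± 0.034 (adjusted p = 0.0143) no longer passed without control replicate 2 (adjusted p = 0.113; 0.000472 to 0.113 over 16 alternatives). Prosalpha5, Prosalpha6, Prosalpha4, Prosalpha3 and Prosalpha7 fell by 0.30, 0.24, 0.22, 0.17 and 0.16.

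Control replicate 1 had the lowest control value for Prosalpha2, Prosalpha3, Prosalpha4, Prosalpha5 and Prosalpha7, and the highest for Prosalpha1 and Prosalpha6. Its alpha sum was 1109 CPM against 1192 and 1182 in the other control libraries. Its beta sum (1241 CPM) and base sum (2403 CPM) were also the lowest of the control libraries, but its lid sum (1758 CPM) was the highest. Without control replicate 1, 31 members were lower in NAT10 knockdown discs, as with it.

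**Figure D2:**
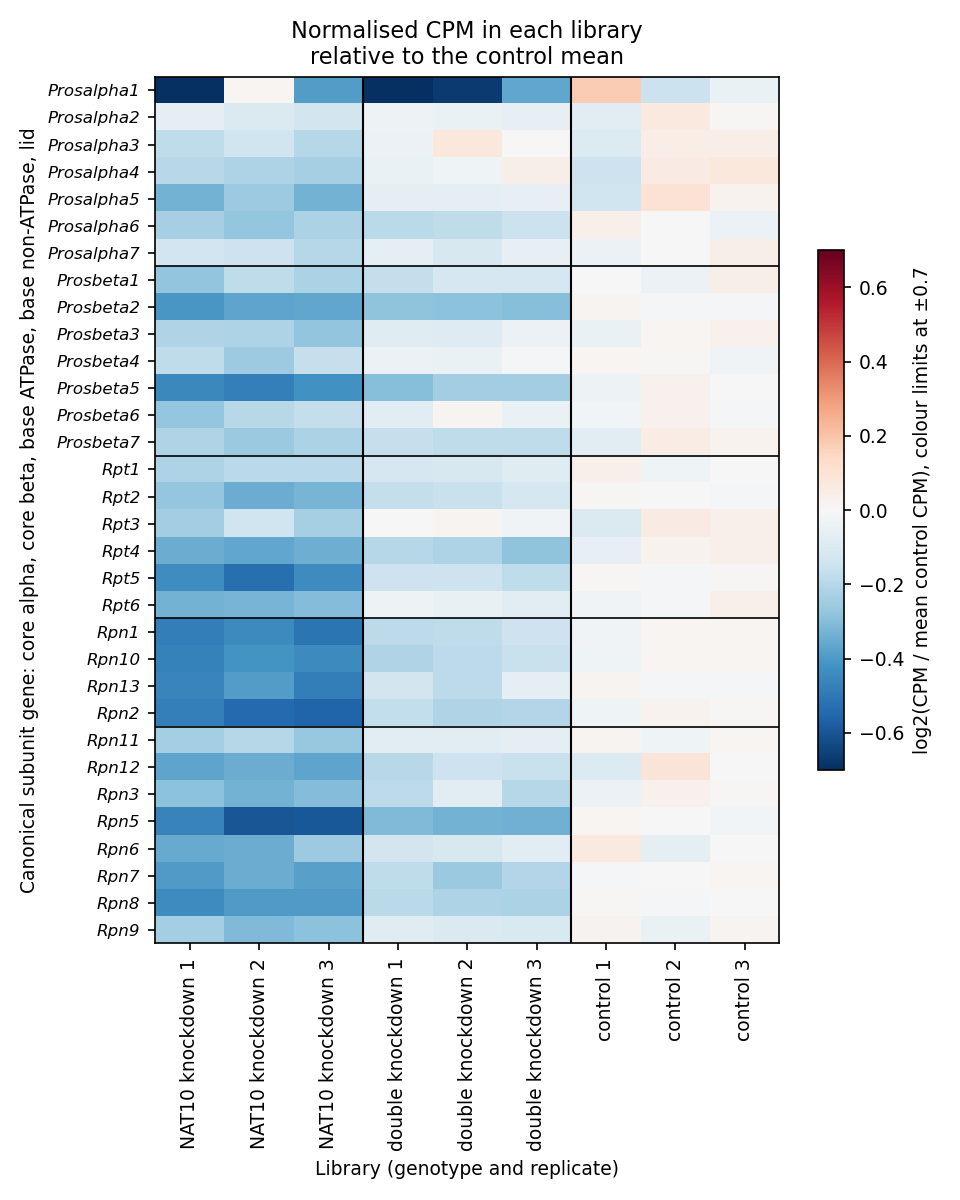
Level of each canonical subunit gene (rows, grouped by subcomplex) in each library (columns) as log2 of its CPM over the control mean, with colour limits at 0.7 either way, beyond which some Prosalpha1 values lie. NAT10 knockdown columns are the most strongly blue in the base non-ATPase and lid rows, and double knockdown columns are paler.

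Prosalpha1 was the single canonical gene that did not pass. It had 15.84, 32.10 and 24.22 CPM in NAT10 knockdown, 14.80, 19.96 and 24.75 in double knockdown and 36.04, 28.63 and 30.74 in control libraries. The NAT10 knockdown and control ranges overlapped (log2 fold change -0.41 ± 0.29, adjusted p = 0.268). Its level was also far below that of the other alpha subunits, at 32.8 ± 3.88 FPKM in control discs where the 6 others had 173.5 to 210.9.

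The table lists a second gene of the proteasome map beside it, CG30382, which the BDGP6.54 annotation names Prosalpha1R and whose symbol the rule does not reach. Prosalpha1 (FBgn0263121) lies at 2R, 7827303 to 7828678, minus strand, and CG30382 (FBgn0050382) 1.7 kb away at 7830413 to 7831771 on the same strand. Prosalpha1 held fractional counts, as estimated counts do when reads match more than 1 gene. Its share of the pair's counts varied from 6.949% to 16.81% between libraries.

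Summed as 1 gene, the pair varied little within a genotype. The sum was 192.3, 191.0 and 198.4 CPM in NAT10 knockdown, 213.0, 208.6 and 218.7 in double knockdown and 244.8, 242.9 and 245.1 in control libraries. The genotypes did not overlap. Against control, the sum was lower by a log2 fold change of -0.33 ± 0.029 in NAT10 knockdown discs (adjusted p = 1.31e-10) and of -0.19 ± 0.028 in double knockdown discs (adjusted p = 5.44e-06). The sum was chosen after seeing the split.

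**Figure D3:**
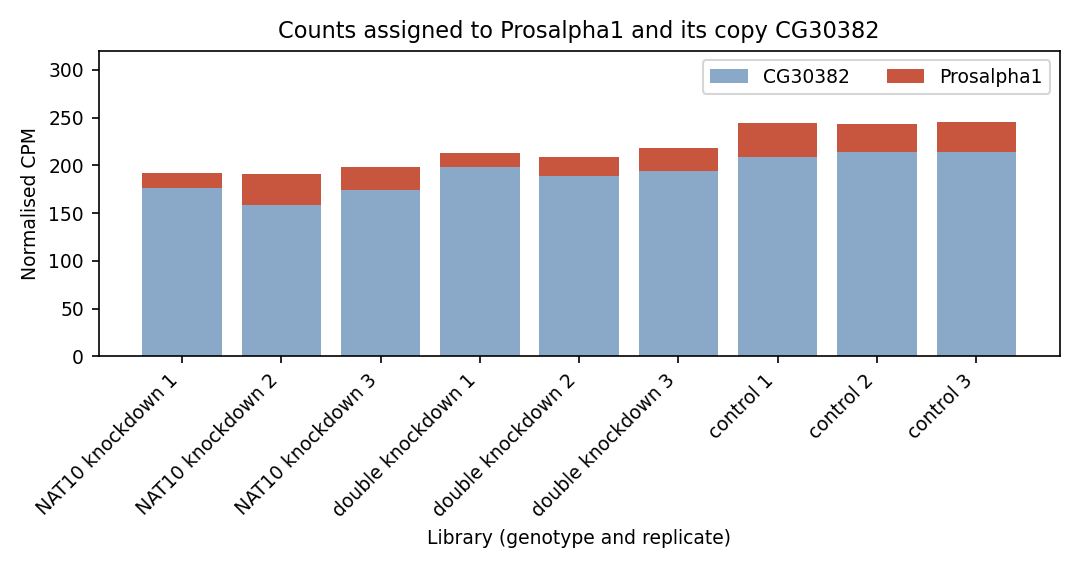
Normalised CPM of CG30382 and, stacked on it, Prosalpha1 in each library (x axis: genotype and replicate). The stacked total is 191.0 to 198.4 in NAT10 knockdown, 208.6 to 218.7 in double knockdown and 242.9 to 245.1 in control libraries, while the part given to Prosalpha1 varies within each genotype.

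The double knockdown was compared with control to see what remained when Xrp1 was depleted as well. NAT10 itself was less reduced there. The log2 fold change of l(1)G0020 against control was -0.44, against -0.70 in the NAT10 knockdown. Set directly against the NAT10 knockdown, l(1)G0020 was higher in the double knockdown by 0.26 and passed in edgeR's test. The part of this difference in the proteasome values of the double knockdown was not tested. A smaller decrease of the canonical genes was left: their median log2 change was -0.14 (a fold of 0.906), against 0.00 for all genes. In edgeR's test 20 of the 32 canonical genes fell and 0 rose, against 15.5% of all genes that fell and 15.7% that rose. Of the genes with at least the level of Rpn12, 29.2% fell, and their median log2 change was -0.03. At an unadjusted p under 0.05, 22 fell and 0 rose. DESeq2 also called 20 lower and 0 higher, against 10.8% of its genes that were lower. Libraries did not overlap for 24 genes, all lower, against 21.1% of all genes. The summed level was 0.904 of the control mean.

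Of the 18 genes of the regulatory particle 15 fell, among them all 4 non-ATPase base subunits, 7 of 8 lid subunits and 4 of 6 ATPases. In the core, 4 of 7 beta subunits and 1 of 7 alpha subunits (Prosalpha6) fell. Of all genes 15.5% fell, and of those with at least the level of Rpn12 29.2%. The alpha count was not above these shares. Median log2 changes were -0.16 in the lid, -0.175 in the non-ATPase base subunits, -0.13 in the ATPases, -0.14 in the beta and -0.06 in the alpha subunits, and differences between them were not tested. Without control replicate 1, the library with the low alpha sum, 22 genes fell in all. Prosalpha2, Prosalpha5 and Prosalpha7 then passed and Rpn6 did not.

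Rpn5 again had the largest decrease among the genes that passed. It had 284.2, 280.6 and 278.8 CPM in double knockdown, against 356.3, 353.8 and 347.5 CPM in control libraries. All double knockdown libraries were lower, by 0.33 ± 0.030 on the log2 scale (adjusted p = 3.08e-09). Prosbeta2 had 166.6, 166.0 and 164.9 CPM in double knockdown, against 205.0, 201.3 and 201.4 CPM in control libraries. This decrease of 0.29 ± 0.030 (adjusted p = 1.7e-08) was also without overlap. Prosbeta2 was nonetheless higher in the double knockdown than in the NAT10 knockdown (0.09 ± 0.030, adjusted p = 0.0103). Prosbeta5 fell by 0.26 ± 0.029 (adjusted p = 5.62e-08). Prosalpha1 alone had a log2 fold change of -0.69 ± 0.29 and did not pass (adjusted p = 0.136).

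At the other end, Prosalpha3, Prosalpha4 and Rpt3 had the smallest changes from control. Prosalpha3 had 165.2, 178.8 and 169.6 CPM in double knockdown, against 159.1, 175.8 and 175.7 CPM in control libraries. Prosalpha4 had 205.3, 207.5 and 217.8 CPM in double knockdown, against 191.8, 220.0 and 223.2 CPM in control libraries. Rpt3 had 163.9, 166.8 and 161.8 CPM in double knockdown, against 153.3, 171.1 and 168.7 CPM in control libraries. For all 3 genes the double knockdown libraries overlapped the control range, with log2 fold changes of 0.01 ± 0.038, -0.01 ± 0.046 and 0.00 ± 0.039 (adjusted p = 0.887, 0.917 and 0.997). Control replicate 1 was the lowest control library for each, and Prosalpha4 and Rpt3 overlapped the control range only through it. Over 16 alternatives their lowest log2 fold changes were -0.04 (Prosalpha3), -0.08 (Prosalpha4) and -0.05 (Rpt3), and none passed.

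**Figure D4:**
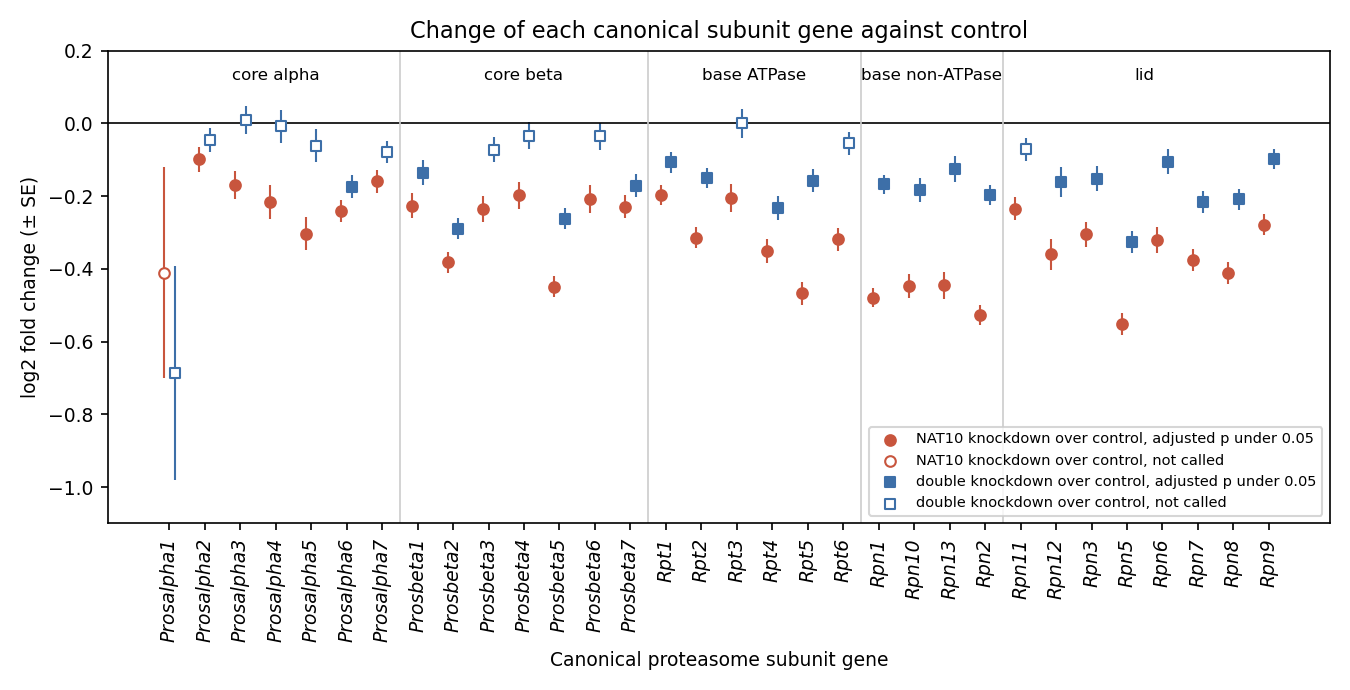
Log2 fold change ± SE of each canonical subunit gene (x axis, grouped by subcomplex) in NAT10 knockdown over control (circles) and double knockdown over control (squares), filled where the adjusted p was under 0.05. Circles lie between -0.55 and -0.10, and squares lie nearer to 0 for every gene but Prosalpha1.

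The double knockdown was set directly against the NAT10 knockdown to test the difference between them. Of the 32 canonical genes, 28 were higher in the double knockdown and 0 lower in edgeR's test, against 28.4% of all genes that were higher and 28.3% that were lower. Of the genes with at least the level of Rpn12, 49.7% were higher. At an unadjusted p under 0.05 the counts were 29 higher and 0 lower. DESeq2 gave 28 higher and 0 lower, against 23.4% of its genes that were higher. This comparison uses the NAT10 knockdown libraries of the first comparison again. The median log2 change was 0.18, a fold of 1.13, against -0.01 for all genes. Genes with at least the level of Rpn12 had a median of 0.08. Libraries did not overlap for 31 genes, all higher, against 31.2% of all genes.

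Of the genes found by the rule, 18 of 18 in the regulatory particle were higher, and 10 of 14 in the core. Sem1, a gene of the proteasome map that the symbol rule does not reach, did not pass (0.05 ± 0.050, adjusted p = 0.433). Its libraries overlapped between the 2 knockdowns. The 4 largest increases were in the base, in Rpn2 (0.33 ± 0.028, adjusted p = 8.49e-11), Rpn13 (0.32 ± 0.037, adjusted p = 3.85e-08), Rpn1 (0.31 ± 0.027, adjusted p = 1.53e-10) and Rpt5 (0.31 ± 0.032, adjusted p = 4.19e-09). Rpn2 had 432.1, 421.6 and 422.7 CPM in double knockdown, against 350.2, 334.2 and 330.8 CPM in NAT10 knockdown libraries. Rpt5 had 184.0, 184.0 and 180.0 CPM in double knockdown, against 150.8, 141.4 and 149.9 CPM in NAT10 knockdown libraries. Both genes were higher in every double knockdown library, yet below every control library.

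Prosalpha1, Prosalpha2, Prosalpha6 and Prosbeta7 did not pass, with log2 fold changes of -0.28, 0.05, 0.07 and 0.06 (adjusted p = 0.481, 0.187, 0.0699 and 0.125). The sign of Prosalpha1 alone turned when it was summed with CG30382, to an increase of 0.14 ± 0.029 (adjusted p = 0.000184).

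The order of the genotypes was thus shared across the complex. Mean levels were lowest in NAT10 knockdown, intermediate in double knockdown and highest in control discs for 30 of 32 genes, against 26.8% of all genes. Every library followed this order for 23 genes, against 10.3% of all genes. The 23 were all 8 lid genes found by the rule, all 4 non-ATPase base genes, 5 of 6 ATPases, 4 of 7 beta and 2 of 7 alpha subunits. In summed CPM, the double knockdown kept 46.7% of the difference from control seen in the NAT10 knockdown, with 40.8% for the base, 50.5% for the core and 51.9% for the lid. These shares use the same control libraries above and below the line and have no test.

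Changes of this size depended on the threshold. Against a fold of at least 1.2 (edgeR's glmTreat), 14 members were lower in the NAT10 knockdown, against 12.4% of all genes. In the double knockdown 0 were lower (1 at an unadjusted p under 0.05), against 2.23% of all genes. Against the NAT10 knockdown 2 were higher in the double knockdown, Rpn1 and Rpn2, against 11.7% of all genes. In the authors' deposited table, 11 members were lower in the NAT10 knockdown at an FDR under 0.05 (6.07% of all genes) and 0 in the double knockdown (0.501%). At an unadjusted p under 0.05 the authors' deposited table of the double knockdown had 0 members lower and 3 higher, with log2 fold changes of 0.01 to 0.03. Its p-values were largest at log2 fold changes between -0.3 and -0.2, not at 0. The members' median log2 fold changes in the authors' deposited table were -0.30 and -0.12, near those given above.

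The copies marked T or R were nearly silent. Of the 15, 8 had 0 counts in all 9 libraries: Prosalpha4T1, Prosalpha4T2, Prosalpha6T, Prosbeta2R1, Prosbeta5R1, Prosbeta5R2, Rpn12R and Rpt4R. A count of 0 allows up to 3 counts, which is 0.150 to 0.212 CPM depending on the library, counting error only. A further 4 (Prosalpha3T, Prosbeta2R2, Prosbeta4R2 and Rpn13R) had 1 or 2 counts in a library at most. The testis and germline markers were equally scarce, with a summed level of 0.355 to 1.10 CPM over 10 genes, 0 of 10 passing the filter, and aly and ProtA at 0.

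The 3 remaining copies had more than 3 counts in a library. Prosbeta4R1, a copy of a beta subunit gene, had 0, 5 and 5 counts in NAT10 knockdown and 0 in every double knockdown and control library. Rpt6R had 1, 2 and 3 counts in NAT10 knockdown, 5, 3 and 3 in double knockdown and 3, 0 and 4 in control libraries. These counts are too low for the test, and those of Rpt6R overlap between all genotypes.

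Only Rpt3R (FBgn0037742, 3R, 9754735 to 9756510, minus strand), a copy of the ATPase gene Rpt3, passed the filter. It had 4.86, 5.77 and 5.56 CPM in NAT10 knockdown, 4.27, 4.01 and 4.31 in double knockdown and 5.02, 3.90 and 5.33 in control libraries. The control libraries spanned the range of the double knockdown, and neither knockdown differed from control (adjusted p = 0.339 and 0.39). It was lower in the double knockdown than in the NAT10 knockdown, by 0.36 ± 0.15 on the log2 scale (adjusted p = 0.045). This call held in 5 of 16 alternatives (adjusted p = 0.038 to 0.158).

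Genes that build, cap or serve the proteasome were compared next. Of 11 assembly and associated factors 8 fell and 2 rose in the NAT10 knockdown against control (median log2 fold change -0.29), against 29.6% lower and 32.5% higher of all genes and 53.7% lower of those with at least the level of Rpn12. The deubiquitinase Uch-L5, which binds Rpn13, fell by 0.41 ± 0.034 (adjusted p = 6.45e-11). The ubiquitin shuttle Rad23 fell by 0.29 ± 0.027 (adjusted p = 4.05e-10), and the core maturation factor Pomp by 0.33 ± 0.055 (adjusted p = 7.25e-05). Pomp shares 40% of its exon bases with vari. The other deubiquitinase, Usp14, the shuttle Ubqn, Txl, CG8858 and Sem1 also fell. In the double knockdown 5 of the 11 were lower than in control: Uch-L5, Rad23, Txl, CG8858 and Sem1. Of all genes 15.5% were lower there, and 29.2% of those with at least the level of Rpn12.

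REG, the alternative activator that caps the core in place of the regulatory particle and works without ubiquitin, went the other way. It had 365.7, 371.0 and 366.4 CPM in NAT10 knockdown, 293.8, 285.3 and 292.4 in double knockdown and 273.6, 277.2 and 283.8 in control libraries. All NAT10 knockdown libraries were above all others, while double knockdown libraries lay just above the control range. REG rose by 0.40 ± 0.026 in the NAT10 knockdown against control (adjusted p = 4.02e-13). In the double knockdown the difference from control was 0.06 ± 0.026 (adjusted p = 0.0727; 0.0151 to 0.26 over 16 alternatives, of which 2 passed). Against the NAT10 knockdown, REG fell by 0.34 ± 0.026 in the double knockdown (adjusted p = 1.26e-11). The proteasome regulator PI31 rose by 0.13 ± 0.046 in the NAT10 knockdown (adjusted p = 0.0169).

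**Figure D5:**
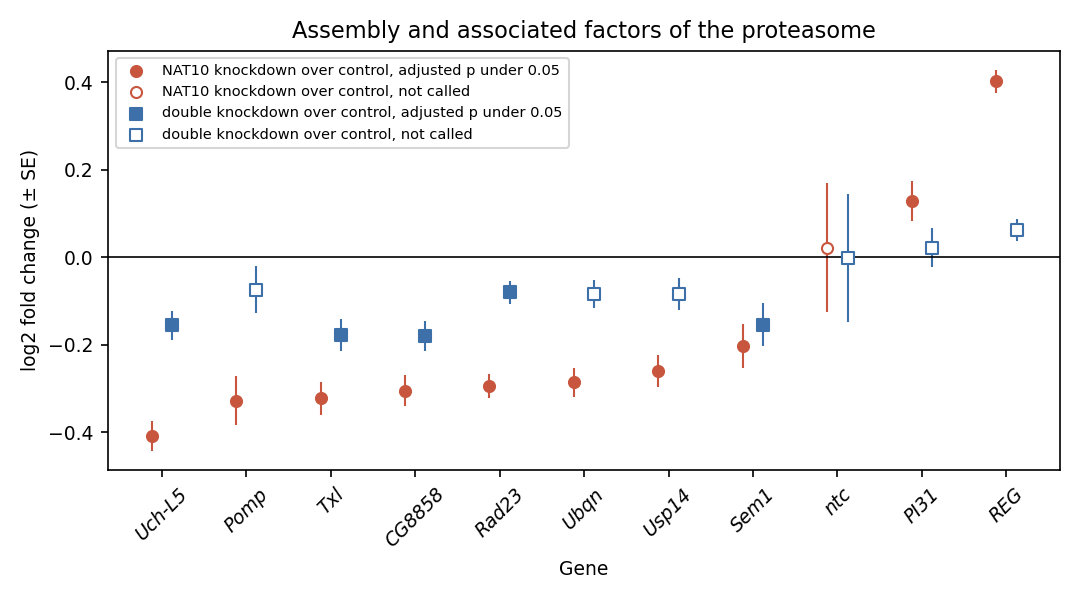
Log2 fold change ± SE of 11 assembly and associated factors (x axis) in NAT10 knockdown over control (circles) and double knockdown over control (squares), filled where the adjusted p was under 0.05. REG stands apart at 0.40 in the NAT10 knockdown, while 8 factors lie between -0.41 and -0.20.

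Of 8 genes for the Nrf1-type factor and its processing and control, 6 fell with NAT10 knockdown and 2 with double knockdown. The shares were 29.6% and 15.5% of all genes, or 53.7% and 29.2% of those with at least the level of Rpn12. Keap1, which is not an activating step, was among the 6 (log2 fold change -0.19 ± 0.081, adjusted p = 0.0468). Among the 2 that did not pass with NAT10 knockdown, rngo had a log2 fold change of 0.07 (adjusted p = 0.171). The factor itself, cap'n'collar (cnc), averaged 136.6 ± 3.75 CPM in NAT10 knockdown, 139.5 ± 3.47 in double knockdown and 153.3 ± 4.45 in control discs (SD, n = 3 each). Its log2 fold changes against control were -0.17 ± 0.036 in NAT10 knockdown discs (adjusted p = 0.000228) and -0.14 ± 0.035 in double knockdown discs (adjusted p = 0.00374). The ubiquitin ligase gene sip3, a homologue of Hrd1, fell in NAT10 knockdown discs by 0.47 ± 0.046 (adjusted p = 1.81e-09). TER94, the p97 ATPase, fell by 0.23 ± 0.026 (adjusted p = 1.77e-08).

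Ubiquitin genes moved in both directions. Of 4 ubiquitin precursors and the activating enzyme Uba1, 2 fell and 3 rose in the NAT10 knockdown, with RpL40, which encodes ubiquitin fused to a ribosomal protein, higher by 0.31 ± 0.026 (adjusted p = 5.18e-11). Of 11 E2 conjugating enzymes 3 fell and 3 rose, where 29.6% of all genes fell and 32.5% rose. The E2 gene eff averaged 554.5 ± 5.26 CPM in NAT10 knockdown, 697.8 ± 17.8 in double knockdown and 898.8 ± 32.0 in control discs (log2 fold change of NAT10 knockdown over control -0.70 ± 0.028, adjusted p = 1.61e-17). The E2 gene vih rose by 0.33 in the NAT10 knockdown. vih shares 30.6% of its exon bases with CG10654. Of 5 p97 genes and cofactors, TER94 among them, 2 fell and 1 rose.

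Among 11 cullin ligase genes 7 fell and 1 rose in the NAT10 knockdown, against 29.6% lower and 32.5% higher of all genes and 53.7% lower of those with at least the level of Rpn12. Cul1 fell by 0.29 ± 0.026 (adjusted p = 2.29e-10). The gene that rose was Cul2, the scaffold of a ligase family that uses EloB and EloC. It had 1029, 989.5 and 1015 CPM in NAT10 knockdown, 149.8, 147.1 and 148.7 in double knockdown and 157.0, 151.7 and 156.0 in control libraries. The NAT10 knockdown libraries stood 6.52-fold above control (log2 2.71 ± 0.028, adjusted p = 1.05e-30), while the double knockdown did not pass against control (-0.06 ± 0.029, adjusted p = 0.11). EloB fell in both knockdowns, by 0.38 ± 0.059 in the NAT10 knockdown and by 0.49 ± 0.059 in the double knockdown.

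A pair of other multisubunit complexes served for comparison. The COP9 signalosome, which resembles the lid in architecture and removes Nedd8 from cullins, had 3 of 8 tested genes lower in the NAT10 knockdown, with a median log2 fold change of -0.12. Most COP9 genes averaged below the level of Rpn12. Of genes with at least the level of Prosalpha1, 39.2% fell, with a median of -0.03. Of genes with at least the level of Rpn12, 53.7% fell, with a median of -0.11, and of all genes 29.6% fell. Against control, the COP9 subunit CSN1b had log2 fold changes of -0.24 ± 0.045 in NAT10 knockdown (adjusted p = 4.12e-05) and -0.39 ± 0.045 in double knockdown discs (adjusted p = 1.48e-07). The CCT chaperonin, which folds actin and tubulin, had 5 of 8 genes lower and 2 higher, with a median of -0.09. The proteasome median of -0.31 lay below both, and this difference was not tested.

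Markers of the cells in the discs also moved between genotypes, and their part in the proteasome values was not tested. All 11 wing disc epithelium markers fell in the NAT10 knockdown (median log2 fold change -0.31), and 5 of 11 in the double knockdown. Of all genes 29.6% and 15.5% fell, and of those with at least the level of Rpn12 53.7% and 29.2%. Against the NAT10 knockdown, 10 of the 11 markers were higher in the double knockdown (median 0.29), where 28.4% of all genes were higher. Of those with at least the level of Rpn12, 49.7% were higher. The posterior marker sum (en, inv and hh) was 188.2 to 193.8 CPM in NAT10 knockdown, 208.4 to 223.5 in double knockdown and 249.4 to 264.0 in control libraries. Its member engrailed (en), the gene whose enhancer drives GAL4 here, averaged 61.7 ± 0.705 CPM in NAT10 knockdown, 71.8 ± 1.14 in double knockdown and 101.1 ± 2.59 in control discs. The sum of 6 fat body markers was 61.8 to 67.8 CPM in NAT10 knockdown, 1266 to 1306 in double knockdown and 12.4 to 15.5 in control libraries. Muscle markers summed to 41.2 to 46.3 CPM in NAT10 knockdown, 41.8 to 44.6 in double knockdown and 72.3 to 73.7 in control libraries. The muscle genes did not move together: in NAT10 knockdown discs 5 of 6 fell and Mlc2 rose, with 26.1 to 28.3 CPM in NAT10 knockdown, 11.7 to 12.4 in double knockdown and 14.35 to 15.04 in control libraries. Act57B had 9.55 to 12.4 CPM in NAT10 knockdown, 24.3 to 27.4 in double knockdown and 40.5 to 41.5 in control libraries. Hemocyte markers summed to 9.50 to 10.3 CPM in NAT10 knockdown, 8.32 to 10.1 in double knockdown and 17.5 to 19.7 in control libraries. Tracheal markers summed to 62.9 to 68.2 CPM in NAT10 knockdown, 106.8 to 107.2 in double knockdown and 88.3 to 103.5 in control libraries. The sum of the 3 neuron markers overlapped between all genotypes, at 81.4 to 91.5 CPM, and was carried by elav. Among them Syt1 had 0.278 to 0.295 CPM in NAT10 knockdown, 2.26 to 2.47 in double knockdown and 0.497 to 0.937 in control libraries, and passed in all 3 comparisons (adjusted p at most 0.00758). Its NAT10 knockdown values lay near the level of 3 counts, which is 0.167 to 0.176 CPM in those libraries.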

How the data were processed

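Per the submitters' processing notes reads were handled with fastp (0.18.0), HISAT2 (2.1.0), RSEM and StringTie (1.3.1); no genome build is named in the sources used. The authors deposited estimated counts and FPKM per gene and library, and comparison tables with log2 fold changes, p-values and FDR whose test is likewise not named. In each library between 8.19% and 9.11% of genes had an estimated count that was not whole, and these counts were rounded. The fit used edgeR 4.0.16 under R 4.3.3 on all 9 libraries (TMM, filterByExpr, robust quasi-likelihood test). It covered 8487 genes, with calls made where the Benjamini-Hochberg p was under 0.05. The common biological coefficient of variation was 3.61%. The procedure was tested on simulated data. DESeq2 1.42.0, other scalings, filters and thresholds, a replicate block and leaving out each library were alternatives. Members, lists and tests were chosen with earlier results of these data known. Values per library are given for the largest and smallest change in each subcomplex, members that did not pass, the 3 largest and 3 smallest remaining changes in the double knockdown, and copies above 3 counts. From other lists, up to 3 genes with the smallest adjusted p were named by rule, and some are not reported here. Pomp, PI31, cnc, EloB, Rpn1, Rpn10 and Prosbeta1 were named in addition, as were Keap1, rngo, Usp14, Ubqn, Txl, CG8858 and Sem1. Positions are 1-based, from the BDGP6.54 annotation, release 115. No sequences are printed.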

Additional observations from a re-analysis of the deposited data

How the results depend on the processing

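For members against control, counts stayed within 1.5 times under the DESeq2 test, other size factors, total counts only, both filters, a fit of only the 2 genotypes, an adjusted p under 0.01 and the Prosalpha1 sum (added later). They did not against a fold of 1.2: 14 lower in the NAT10 knockdown, 0 lower in the double knockdown, and 2 higher in the double against the NAT10 knockdown. Over all genes that threshold left 1053 lower and 1335 higher, 189 lower and 469 higher, and 1003 lower and 997 higher in the same 3 comparisons. With the authors' deposited FDR (added later) 11 members and 860 of all genes were lower in the NAT10 knockdown, and 0 members and 71 of all genes in the double knockdown. The cause was not tested. Scaling by total counts only moved the members' median in the double knockdown against control to -0.12 (-0.118), and the share of higher genes among all called there to 60.7%, against 50.3% with TMM. Leaving out 1 library at a time gave 30 to 31 members lower in the NAT10 knockdown (median -0.327 to -0.301), 18 to 22 lower in the double knockdown (median -0.145 to -0.13) and 27 to 29 higher in the double against the NAT10 knockdown (median 0.175 to 0.199, the last without NAT10 knockdown replicate 1). Over all genes it gave 2382 to 2679 lower and 2409 to 2770 higher, 1105 to 1312 lower and 1168 to 1349 higher, and 2024 to 2504 lower and 2294 to 2521 higher. In the double knockdown against control Rpn6 was not called in 5 of 16 alternatives, Rpn9 in 2 and Rpn13 in 1. Prosalpha1 against the NAT10 knockdown turned to 0.139 when summed with CG30382. Replicate numbers did not pair the libraries (correlations of same-numbered libraries between -0.0284 and 0.0769), and the fit with the replicate block gave 31 and 20 members lower and 28 higher, with no canonical call changed. Counts of 0 to 5 for most copies limit what can be said of them.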

Other observations

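The p-values in the authors' deposited tables were not centred on a log2 fold change of 0. Among genes with at least 50 FPKM in control discs, the median p in the authors' deposited table of the double knockdown was highest, at 0.904, for the 77 genes with a log2 fold change between -0.3 and -0.2. It was 0.0244 for the 496 genes between 0 and 0.1. In the NAT10 knockdown it was highest, at 0.771, for the 262 genes between -0.1 and 0. Among the members, Rpt4 had a log2 fold change of -0.21 and a p of 0.916 in the authors' deposited table of the double knockdown, while Prosalpha3, at 0.03, had a p of 0.0156. These genes were chosen after their values were seen. The edgeR values for the same genes were -0.23 ± 0.033 (adjusted p = 3.55e-06) for Rpt4 and 0.01 ± 0.038 (adjusted p = 0.887) for Prosalpha3. The cause was not tested.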
